A study of Mus musculus with 36 samples.

Results

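A set of 9 nuclear receptor coregulators was followed through the differentiation of mouse brown pre-adipocytes. The 9 genes were listed by name (Ncoa1, Ncoa2, Ncoa3, Ep300, Crebbp, Med1, Ncor1, Hdac3 and Nrip1), and were picked out of the 55536 genes of the deposited count tables by their GENCODE M21 identifiers. All 9 passed the filter on low counts, as did 16723 genes in all. The cells were brown pre-adipocytes in which Cas9 had disrupted Rxra (Rxra-/-), taken from 2 clones, numbered 48 and 66. Every group carried this disruption. Each clone received, by retrovirus (pBabe Hygro), either wild type Rxra (RxraWT) or a form in which a serine that is phosphorylated in response to insulin was replaced by alanine (RxraSA). RNA was sequenced from 3 replicates of each clone and genotype at day 0 (confluence) and at days 2 and 6, which gave 36 libraries, 12 per day and 6 per genotype and day. The differentiation medium held insulin and triiodothyronine, in which the cells had already grown to confluence at day 0, and dexamethasone, isobutylmethylxanthine and indomethacin were added for the first 2 days after it. Each clone is the progeny of a single cell and was sequenced as a pool of its own, so clone and pool cannot be told apart, and the receptor under study came from a viral promoter.

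Nuclear receptors such as RXRα and its partner PPARγ do not act on chromatin alone. On binding a ligand, the receptor exposes a groove that takes up a short helix of leucines, the receptor box, by which coactivators of the p160 family (Ncoa1, Ncoa2, Ncoa3) and the Mediator subunit Med1 are recruited. The p160 proteins bring in the histone acetyltransferases Ep300 and Crebbp, and Mediator connects the receptor with RNA polymerase. Without ligand, many receptors bind NCoR (Ncor1) through related boxes, and NCoR holds and activates the deacetylase Hdac3. Nrip1, also called RIP140, binds liganded receptors through receptor boxes but represses, and is known in fat for holding back oxidative genes. In adipocytes, PPARγ and RXRα bind DNA as a heterodimer and recruit these same proteins.

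The receptor boxes are shown because they are what the coactivators and Nrip1 share. In the longest coding sequence of each gene in GENCODE M21 (GRCm38), a box was counted wherever a leucine was followed by any 2 residues and then 2 leucines. Nrip1 held 10 boxes in 1161 residues, a count reached by 75 of 21518 coding genes (0.349%). Overlapping boxes were counted separately in all genes, and boxes 6 and 7 of Nrip1 overlap (residues 501 to 505 and 502 to 506). Ncoa1 held 7, Ncoa3 held 6 and Ncoa2 held 4, counts reached by 1.02%, 1.59% and 5.12% of coding genes. Ep300 and Crebbp held 3 each, Med1 held 2, Ncor1 held 1 and Hdac3 held 0. At least 1 box was present in 45.0% of coding genes, so that a small count sets no gene apart. The corepressor box (leucine or isoleucine, 2 residues, isoleucine or valine, isoleucine) was found 5 times in Ncor1, a count reached by 0.776% of coding genes, against 1 time in Nrip1 and Med1 and 0 times in the other 6. The boxes of Nrip1 all lie in exon 4 of 4, on the minus strand of chromosome 16. The codons of its first box (chr16:76294593-76294607) and of 4 others are given below, 5′ to 3′ on the coding strand, with the leucine codons that define the box in capitals.
Nrip1 box 1: CTCgaagggTTACTA
Nrip1 box 2: CTGgcctctTTGCTT
Nrip1 box 3: TTAaaaactCTGTTG
Nrip1 box 8: CTTcagttgCTCCTG
Nrip1 box 10: CTCaagcagCTGCTG

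In each p160 gene, 3 of the boxes lie close together in the same exon, the stretch by which these proteins bind receptors. It is exon 9 of 19 in Ncoa1 (chromosome 12, minus strand), exon 11 of 23 in Ncoa2 (chromosome 1, minus strand) and exon 12 of 23 in Ncoa3 (chromosome 2, plus strand). The first of the 3 lies at chr12:4295423-4295437, chr1:13174538-13174552 and chr2:166055127-166055141 respectively. They are printed so that they can be compared.
Ncoa1 first: CTAgtacagCTATTG
Ncoa2 first: CTCctgcagCTGCTG
Ncoa3 first: CTGctgcagTTACTC
Ncoa1 middle: CTGcaccggCTTTTA
Ncoa2 middle: TTGcacagaCTCTTA
Ncoa3 middle: TTGcacaagTTGCTG
Ncoa1 last: CTAcgctacCTTTTA
Ncoa2 last: CTGcgctatTTGCTC
Ncoa3 last: CTTagatacCTGCTG
Between any pair of the 3 genes, 8 to 11 of the 15 bases of a box matched, and 4 or 5 of its 5 residues were the same. The 3 leucines of a box are the same by definition, so only the other 2 residues could differ. The last box had the same residues in all 3 genes.

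The libraries held 11351078 to 24349263 counted read pairs (median 18338726). The summed level of 6 adipocyte markers went from a median of 168 CPM (counts scaled to a fixed library total) at day 0 to 4578 at day 2 and 7625 at day 6. From day 2 to day 6 the medians of Pparg, Fabp4, Plin1 and Adipoq rose. Those of Cebpa (711 to 489 CPM) and Lipe (887 to 747 CPM) fell. The sum of 5 pre-adipocyte markers had medians of 286, 66.6 and 83.4 CPM at days 0, 2 and 6. Of these markers, Dlk1 and Thy1 were under 1 CPM in every library, at day 0 too. Of the 6 brown markers, 4 stayed under 1 CPM in every library of days 0 and 2. Of these, Ucp1 and Zic1 did so at day 6 as well. Ppargc1a had medians of 13.6, 19.5 and 22.9 CPM at days 0, 2 and 6. Ebf2 went from a median of 8.67 CPM at day 0 (0.143 to 32.5) to 21.1 at day 6 (0.79 to 62.8). The markers of endothelial cells (3 genes) and of red cells (2 genes) were under 1 CPM throughout, and so were Ptprc, Adgre1 and Itgam of the leukocyte list. The list has 4 genes, and the remaining 1 was over 1 CPM in every library. Smooth muscle markers had a median sum of 293 CPM at day 0, nearly all of it Acta2, 3.99 at day 2 and 25.6 at day 6, where Myh11 had a median of 21.7 CPM. In bulk RNA of this kind, fewer cells of a type and less RNA per cell cannot be told apart.

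Before any comparison, the members were set against each other across replicates, since 8 of the 9 varied together. When each library was expressed as its deviation from the mean of its clone, genotype and day, the log2 CPM of the 8 members other than Hdac3 correlated at r = 0.70 to 0.97 in the 28 pairs (36 libraries, which share depth and library preparation). Hdac3 went the other way, with r = −0.75 to −0.48 against the rest. The pattern was not particular to the members, as 22.0% of 9381 genes with a mean log2 CPM over 3 followed the mean of the 8 at r over 0.7 and 35.0% opposed it at r under −0.5. The first set had a median length of 6747 bases and the other 3512 bases, against 4716 bases for all 9381 genes.

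The mitochondrial share of the counts moved with these deviations. It ran from 1.11% to 9.09%, and its median went from 1.62% at day 0 to 2.16% at day 2 and 3.35% at day 6. The mean deviation of the 8 members tracked that of the log2 mitochondrial percent, with Pearson's r = 0.95 and Spearman's rho = 0.957 over 36 libraries (both p = 4.29e-05, exact permutation of replicate numbers within clone and day, two-sided, adjusted p = 8.57e-05 over 2 relations). The smallest p this test can give is 2.14e-05. The relation was r = 0.943 within clone 48, r = 0.962 within clone 66 and r = 0.941 without the 2 libraries farthest from the median. Hdac3 gave r = −0.615 and rho = −0.636 (p = 0.0066 and 0.00611 by the same permutation test, also after adjustment), r = −0.493 within clone 48, r = −0.705 within clone 66 and r = −0.579 without the 2 farthest libraries. The log2 total count was also looked at, with r = 0.318 for the mean of the 8 and r = 0.0787 for Hdac3. These are not among the 2 relations adjusted for. The 8 were grouped by these same deviations, and how many of all genes track the mitochondrial percent was not counted. Since the median mitochondrial share was higher at the later days, each day difference below is given also with the log2 mitochondrial percent as a covariate where that ends or turns a call. This fit was chosen after the relation had been seen.

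**Figure D1:**
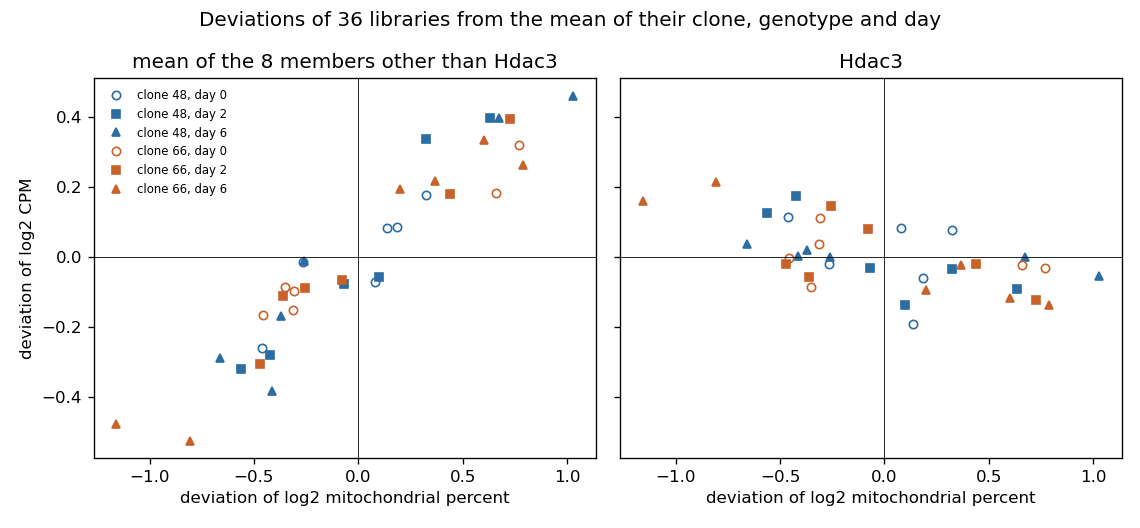
Each point is 1 of 36 libraries, plotted as its deviation from the mean of its clone, genotype and day. The horizontal axis is the deviation of the log2 mitochondrial percent and the vertical axis the deviation of log2 CPM, as the mean of 8 members on the left and of Hdac3 on the right. Blue is clone 48 and orange clone 66, with open circles for day 0, squares for day 2 and triangles for day 6. The 8 members climb along a line (r = 0.95) while Hdac3 falls (r = −0.615).

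Per kilobase of exon, Hdac3 and Ncor1 were the highest of the 9 throughout and Ncoa2, Ep300 and Crebbp among the lowest. At day 0, Hdac3 had a median of 36.1 CPM per kilobase and its lowest library (24.2) lay above the highest of Ncor1 (22.5, median 16.6). Below Ncor1 the order by median was Med1 at 11.3, Nrip1 at 5.37, Ncoa3 at 3.51, Ncoa1 at 3.28, Crebbp at 2.90, Ep300 at 2.58 and Ncoa2 at 2.36 CPM per kilobase, and each gene's range overlapped that of the next. At day 2, Nrip1 stood in the third place (18.2) and Ncoa1 in the fifth (9.60), and the ranges of Ncoa1 and the sixth gene, Ncoa3 (2.88), no longer met. At day 6, Ncoa1 (10.5) had passed Med1 (9.88), although their ranges overlapped, and the nearest pair to stand apart was Med1 and Ncoa3 (3.15).

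The question put to the time course was how coregulator expression moved as the cells differentiated. At day 2, 7 of the 9 members differed from day 0, 5 of them higher (Nrip1, Ncoa1, Med1, Ncor1 and Hdac3) and 2 lower (Ncoa3 and Crebbp). Of all 16723 genes tested, 35.8% were higher and 37.5% lower at day 2, so a call alone set no member apart. The sizes differed more than the calls, since Nrip1 rose 3.59-fold and Ncoa1 2.95-fold and the others by less than 0.5 on the log2 scale. Over all genes, the median absolute log2 fold change against day 0 was 0.615 at day 2 and 0.495 at day 6. Where groups of libraries are said below not to overlap, the share of all genes that did the same was not counted. At day 6, Nrip1, Ncoa1 and Ncor1 were higher than at day 0 (32.9% of all genes were) and no member was lower (35.4% of all genes were). DESeq2 likewise called no member lower. At an unadjusted p under 0.05 there were 4 members in the main edgeR fit, of which Hdac3 pointed down (adjusted p = 0.0504), and 3 in DESeq2. Other edgeR fits did call members lower at day 6. These were Ncoa3 and Hdac3 with replicate number as a block, 5 members with the covariate, and Hdac3 among others with library size alone. From day 2 to day 6, Med1 and Hdac3 fell, against 30.1% of all genes, and no member rose, against 31.9%. This was so in the main edgeR fit and in DESeq2, and 3 of the 9 members had an unadjusted p under 0.05 by either. With replicate number as a block or with library size alone, Ncoa3 was called higher at day 6 than at day 2. With the covariate, 8 members were called lower.

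**Figure D2:**
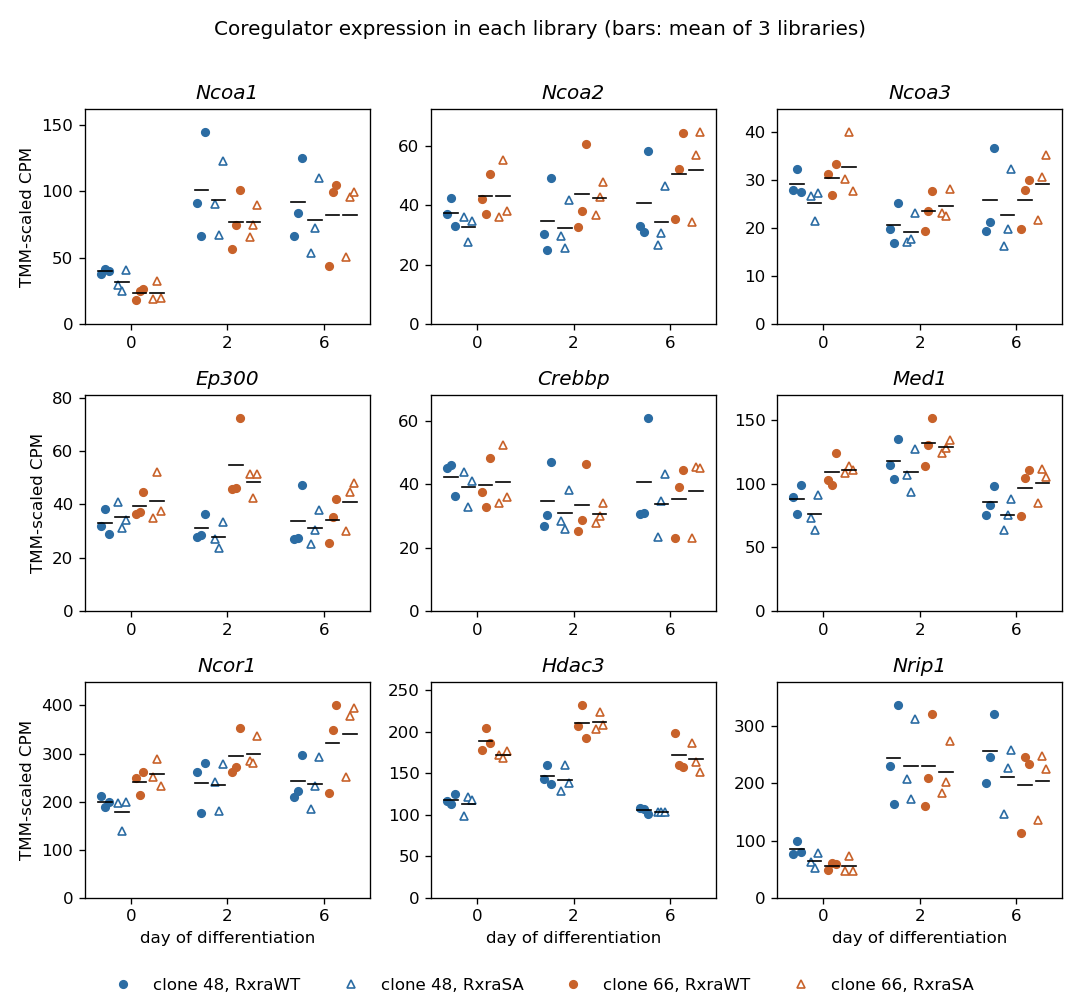
Each panel is a member and each point a library, with the day of differentiation on the horizontal axis and TMM-scaled CPM on the vertical axis, which starts at 0. Filled circles are RxraWT and open triangles RxraSA, blue is clone 48 and orange clone 66, and bars are means of 3 libraries. Ncoa1 and Nrip1 lie higher at days 2 and 6 than in any library of day 0, and the clones separate in Hdac3.

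Nrip1 (ENSMUSG00000048490.14, chr16:76287400-76373827), the corepressor of liganded receptors, rose the most. Its level ran from 46.2 to 99.1 CPM at day 0 (median 61.5), from 160 to 337 at day 2 (median 209) and from 113 to 322 at day 6 (median 231). All 12 libraries of day 2 and all 12 of day 6 lay above the highest library of day 0. The rise to day 2 was 1.84 on the log2 scale (SE 0.154, 95% interval 1.53 to 2.16, 3.59-fold, adjusted p = 7.73e-13), and 1.74 (SE 0.154, 3.35-fold, adjusted p = 3.35e-12) remained at day 6. Within clone 48 the rise to day 2 was 1.68 and within clone 66 it was 2.01, and the difference between the clones, 0.34 (SE 0.312, adjusted p = 0.658), was not called. With the mitochondrial percent as a covariate, the rises were 1.61 (SE 0.0883) and 1.09 (SE 0.108), and Nrip1 was then lower at day 6 than at day 2 by 0.51 (adjusted p = 1.37e-05).

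Ncoa1 (ENSMUSG00000020647.10, chr12:4247362-4477182), the p160 coactivator also known as SRC-1, followed the same course. It ran from 18.7 to 42.0 CPM at day 0 (median 28.1), from 56.4 to 145 at day 2 (median 82.3) and from 44.0 to 125 at day 6 (median 90.1). Again no library of day 2 or day 6 reached down into the range of day 0. The rise to day 2 was 1.56 on the log2 scale (SE 0.169, 95% interval 1.22 to 1.90, 2.95-fold, adjusted p = 3.59e-10) and to day 6 it was 1.52 (SE 0.169, 2.87-fold, adjusted p = 8.17e-10). With the covariate it was 1.30 (SE 0.0847) at day 2 and 0.75 (SE 0.105) at day 6, both called, and day 6 was then lower than day 2 by 0.55 (adjusted p = 3.18e-06). Thus, for both genes the higher level at days 2 and 6 was called in all fits tried, whereas the step from day 2 to day 6 was called only with the covariate.

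Neither of the other p160 coactivators was called higher at a later day. Ncoa2 (SRC-2, ENSMUSG00000005886.14, chr1:13139105-13374083) had medians of 36.9, 37.4 and 40.9 CPM at days 0, 2 and 6, with ranges of 27.6 to 55.3, 24.9 to 60.4 and 26.5 to 64.7. Its difference was −0.03 (95% interval −0.31 to 0.25) at day 2 and 0.18 (−0.10 to 0.46) at day 6. With the covariate it was called lower at both, at −0.26 (adjusted p = 1.14e-04) and −0.48 (adjusted p = 5.03e-07), so the direction at day 6 turned. Ncoa3 (SRC-3, ENSMUSG00000027678.17, chr2:165992636-166073242) ran from 21.5 to 40.0 CPM at day 0 (median 27.7), 16.8 to 28.2 at day 2 (median 22.8) and 16.3 to 36.7 at day 6 (median 24.9), with overlap at all days. It fell by 0.42 to day 2 (SE 0.117, adjusted p = 0.00179), and at day 6 its difference from day 0 was −0.18 (SE 0.116, adjusted p = 0.172). With replicate number as a block, Ncoa3 was also called lower at day 6 than at day 0 (−0.22, adjusted p = 0.0322) and higher at day 6 than at day 2 (0.22, adjusted p = 0.0336). With the covariate these differences were −0.70 (adjusted p = 1.01e-09) and −0.11 (adjusted p = 0.147), so the sign between days 2 and 6 turned. Ncoa3 shares 154 exon bases, 1.95% of its length, with Sulf2 on the opposite strand, and the counting did not use strand.

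The acetyltransferases Ep300 and Crebbp, close paralogs that the p160 proteins recruit, had small differences between days. Ep300 (p300, ENSMUSG00000055024.12, chr15:81585351-81652077) ran from 29.0 to 52.0 CPM at day 0 (median 36.8), 23.6 to 72.3 at day 2 (median 39.5) and 25.3 to 47.9 at day 6 (median 32.9). Its differences from day 0 were 0.08 (95% interval −0.18 to 0.33) at day 2 and −0.09 (−0.34 to 0.16) at day 6. Crebbp (CBP, ENSMUSG00000022521.10, chr16:4081328-4213997) ran from 32.8 to 52.2 CPM at day 0 (median 39.2), 25.3 to 47.0 at day 2 (median 29.3) and 22.9 to 60.7 at day 6 (median 36.8). The ranges overlapped, and the fall of 0.32 to day 2 (SE 0.142, adjusted p = 0.0414) was near the threshold. It was lost in 19 of the 36 fits that left out a library, where the adjusted p reached 0.129. With the covariate the differences were larger, Crebbp being lower by 0.55 at day 2 (adjusted p = 3.22e-09) and by 0.80 at day 6 (adjusted p = 2.13e-10), and Ep300 lower by 0.58 at day 6 (adjusted p = 6.77e-06).

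Med1 (ENSMUSG00000018160.15, chr11:98152154-98193293), the Mediator subunit that binds receptors, rose and then fell. It ran from 63.6 to 124 CPM at day 0 (median 99.1), 93.9 to 151 at day 2 (median 126) and 63.3 to 112 at day 6 (median 86.4). In clone 66 every library of day 6 lay below every library of day 2. The rise to day 2 was 0.36 (SE 0.0822, adjusted p = 2.34e-04), the fall from day 2 to day 6 was −0.45 (SE 0.0823, adjusted p = 1.44e-05) and day 6 differed from day 0 by −0.09 (95% interval −0.26 to 0.07). With the covariate, day 6 was called lower than day 0 (−0.39, adjusted p = 3.27e-05).

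Among the corepressors, Ncor1 (ENSMUSG00000018501.17, chr11:62316426-62458541) ran from 138 to 288 CPM at day 0 (median 212), 177 to 353 at day 2 (median 275) and 184 to 401 at day 6 (median 273). The ranges overlapped. The rise was 0.29 at day 2 (SE 0.104, adjusted p = 0.0126) and 0.38 at day 6 (SE 0.104, adjusted p = 0.00168). With the covariate the difference was 0.14 at day 2 (adjusted p = 0.0424) and −0.064 at day 6 (adjusted p = 0.480), so the direction at day 6 turned.

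Hdac3 (ENSMUSG00000024454.16, on chromosome 18), the deacetylase that NCoR binds, had the tightest values of the 9, with an SD within groups of 0.117 on the log2 scale against 0.204 to 0.447 for the others. It ran from 98.0 to 204 CPM at day 0 (median 146), 129 to 232 at day 2 (median 176) and 101 to 198 at day 6 (median 130). The clones lay apart. Within clone 48, every library of day 2 (129 to 160) lay above every library of day 0 (98.0 to 124) and of day 6 (101 to 108). The rise to day 2 was 0.28 (SE 0.0534, adjusted p = 2.23e-05) and the fall from day 2 to day 6 was −0.39 (SE 0.0535, adjusted p = 7.69e-08). Against day 0, day 6 differed by −0.12 (SE 0.0534, adjusted p = 0.0504), which was called with replicate number as a block (−0.12, adjusted p = 0.0339) but came to 0.00 with the covariate (adjusted p = 0.959).

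The smaller rises rest on a scaling beyond library size, such as TMM, which takes most genes as unchanged. With its own scaling, DESeq2 called the same 5 members higher at day 2 and the same 3 at day 6. With library size alone, the median of all genes was −0.27 at day 2 and −0.22 at day 6 instead of −0.02 and −0.03, and 33.6% and 34.9% of the called genes were higher instead of 48.9% and 48.2%. On that scale Nrip1 (1.58 and 1.55) and Ncoa1 (1.30 and 1.32) were still higher, but Ncor1 (0.03), Med1 (0.10) and Hdac3 (0.02) were not called at day 2. At day 6 on that scale Ncor1 (0.19) was not called and Ncoa3 (−0.38), Hdac3 (−0.31), Crebbp (−0.33), Med1 (−0.28) and Ep300 (−0.28) were lower.

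**Figure D3:**
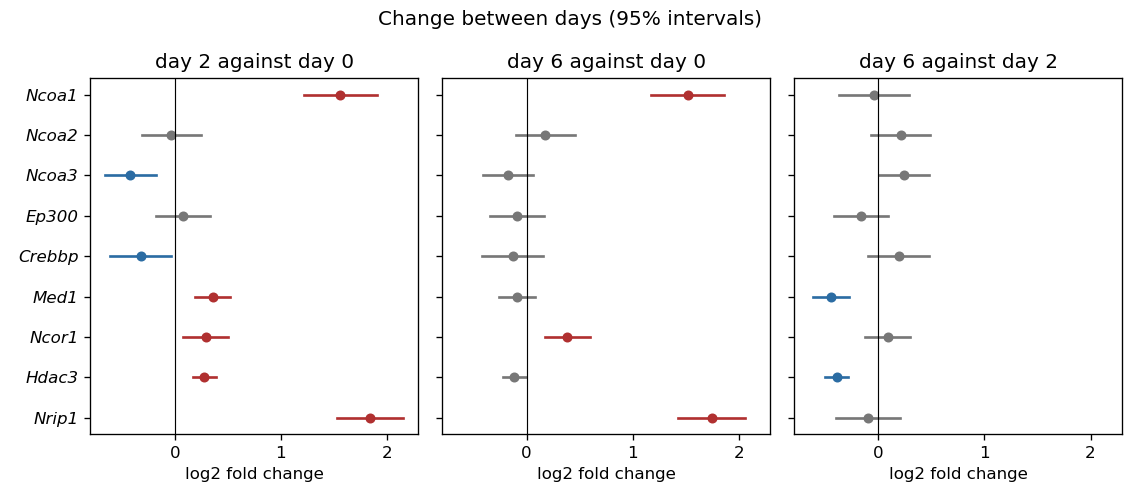
The 9 members are listed on the vertical axis with their log2 fold change between days on the horizontal axis, from the fit over 36 libraries. Points are estimates and lines 95% intervals, red where higher, blue where lower (adjusted p under 0.05) and grey where not called. Nrip1 and Ncoa1 stand apart at 1.84 and 1.56 at day 2, and the other estimates lie between −0.45 and 0.38 in all 3 panels.

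The main question of the design was whether the RxraSA mutation altered expression. Rxra itself, whose counts hold the re-expressed and the disrupted endogenous transcript together and so do not check the disruption, ran from 92.6 to 233 CPM at day 0, 400 to 712 at day 2 and 182 to 347 at day 6. Its medians in RxraWT and RxraSA were 166 and 170 CPM before differentiation, 570.0 and 555 on day 2 and 236 and 244 on day 6. No member was called different between RxraSA and RxraWT. On each of the 3 days the count was 0 of 9, and 0% of the 16723 genes were called by edgeR. DESeq2 also called 0 members, and 0 members reached an unadjusted p under 0.05 by either tool. With the covariate, 3 members (Nrip1, Ncoa1 and Ncoa2) did so at day 0, at an adjusted p of 0.807.

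The largest estimate was that of Nrip1 at day 0. Its level was 59.8 ± 13.8 CPM in RxraSA (SD, n = 6) and 70.8 ± 18.2 in RxraWT, with libraries of 46.2 to 79.0 and 48.7 to 99.1. The difference of −0.23 had a 95% interval of −0.66 to 0.20, and RxraSA was lower in 5 of 6 same-numbered pairs. Later it was −0.07 (−0.50 to 0.35) at day 2 and −0.12 (−0.55 to 0.31) at day 6. Hdac3 gave the narrowest intervals, with −0.10 (−0.25 to 0.05) at day 0, −0.02 (−0.17 to 0.13) at day 2 and −0.04 (−0.19 to 0.12) at day 6. Ncoa1 gave the widest at day 0, −0.64 to 0.31 around −0.16. These intervals come from the fit without pairing. With replicate number as a block within each day, the SEs were smaller (0.106 for Nrip1 and 0.0481 for Hdac3 at day 0), and Nrip1 (−0.24) and Hdac3 (−0.10) reached an unadjusted p of 0.0379 and 0.0482 at day 0, with an adjusted p of 0.807 for both. That fit called 0 members on any day, and 1 gene in all, at day 2.

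Counted over genes and same-numbered pairs, RxraSA was the lower library of the pair in 37 of 54 comparisons at day 0, 33 of 54 at day 2 and 31 of 54 at day 6, but the 9 genes share the libraries, so these are not independent counts. The median difference of the members was −0.09, −0.07 and −0.06 at days 0, 2 and 6, against −0.00, −0.01 and −0.01 over all genes. The change over time was not called to differ between genotypes for any member, with 0 of 9 called from day 0 to day 2, from day 0 to day 6 and from day 2 to day 6, and 0% of all genes called in each by edgeR. DESeq2 called 0 members here and 0 had an unadjusted p under 0.05. The difference between genotypes was also not called to differ between the clones, with 0 of 9 members and 0% of all genes on each of the 3 days by edgeR, 0 by DESeq2 and 0 at an unadjusted p under 0.05.

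**Figure D4:**
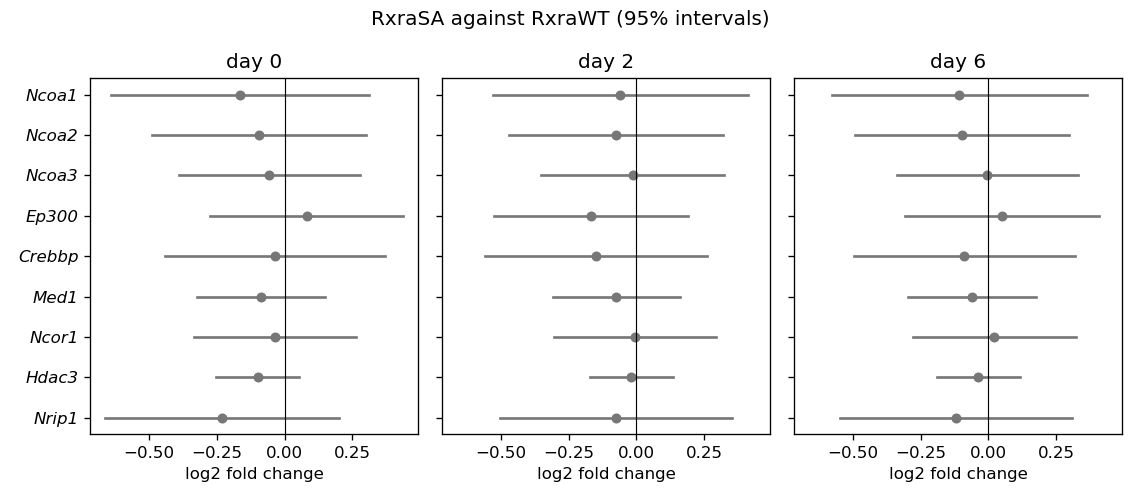
The 9 members are listed on the vertical axis with their log2 difference between RxraSA and RxraWT on the horizontal axis, at days 0, 2 and 6. Points are estimates and lines 95% intervals, all grey since none was called. Each of the 27 intervals spans 0.

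The clones differed in Hdac3 at every day. Clone 48 held 98.0 to 124 CPM at day 0, 129 to 160 at day 2 and 101 to 108 at day 6 (medians 117, 140 and 103). Clone 66 held 169 to 204, 193 to 232 and 151 to 198 (medians 177, 208 and 162), so the clones overlapped at none of the days. The share of all genes in which the clones stood apart was not counted. The difference was 0.65 (SE 0.0777, adjusted p = 1.65e-07), 0.55 (SE 0.0776, adjusted p = 2.37e-06) and 0.70 (SE 0.0778, adjusted p = 4.97e-08) on the log2 scale.

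Besides Hdac3, Med1 was higher in clone 66 at day 0 (0.43, SE 0.118, adjusted p = 0.00779), Ep300 at day 2 (0.81, SE 0.165, adjusted p = 3.66e-04) and Ncor1 at day 6 (0.47, SE 0.157, adjusted p = 0.0254). That made 2 of 9 members higher in clone 66 at each day, against 12.6%, 14.5% and 13.4% of all genes at days 0, 2 and 6, and 0 of 9 lower, against 11.1%, 15.5% and 12.8%. DESeq2 likewise called 0 lower, and 4, 3 and 4 members had an unadjusted p under 0.05 in either direction. Ncoa1 at day 0 was the nearest to a lower call, at −0.59 (SE 0.242, adjusted p = 0.0778).

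Ep300 at day 2 separated the clones fully, with 23.6 to 36.4 CPM in clone 48 and 42.6 to 72.3 in clone 66, whereas at day 0 and day 6 the ranges overlapped. The Ncor1 call was lost without any of 6 libraries of day 6 (RxraWT clone 48 replicates 1 and 2, RxraSA clone 48 replicate 1, RxraWT clone 66 replicates 2 and 3, and RxraSA clone 66 replicate 3), where the adjusted p reached 0.0751, and with the covariate (0.18, adjusted p = 0.120). The Med1 call was lost without RxraSA clone 48 replicate 2 of day 0 (0.35, adjusted p = 0.0532) or RxraWT clone 66 replicate 3 of day 0 (0.35, adjusted p = 0.0509).

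The replicate block called more members between clones. At day 0 it added Ncor1 higher (0.41, adjusted p = 0.00789) and Ncoa1 (−0.60, adjusted p = 0.00200) and Nrip1 (−0.42, adjusted p = 0.0336) lower in clone 66. At day 2 it added Ncor1 (0.34), Ncoa2 (0.37) and Med1 (0.21), and at day 6 Ncoa2 (0.45) and Med1 (0.29), all higher in clone 66. The clones also differed in their median mitochondrial share, as given above. With the covariate, Hdac3 at every day, Med1 at day 0 and Ep300 at day 2 were still called higher in clone 66. Ncoa1, Nrip1 and Crebbp were then lower in clone 66 at all 3 days.

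The change between days was not called to differ between the clones for any member, with 0 of 9 called by edgeR from day 0 to day 2, from day 0 to day 6 and from day 2 to day 6, against 6.84%, 3.85% and 6.18% of all genes. DESeq2 called 0 as well, and 1, 0 and 1 members had an unadjusted p under 0.05. The 1 member was Ep300 in both cases. From day 0 to day 2 it changed by 0.57 more in clone 66 than in clone 48 (SE 0.233, adjusted p = 0.163), and from day 2 to day 6 by −0.60 (SE 0.233, adjusted p = 0.140). With the replicate block these were 0.58 (adjusted p = 0.0404) and −0.61 (adjusted p = 0.0345), and with the covariate they were called as well (adjusted p = 0.00142 and 2.52e-04).

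The wider set of coregulators was taken from 9 lists of 80 genes, of which 71 were not among the members and 68 of these passed the filter. At day 2, 26 of the 68 were higher and 19 lower than at day 0, against 35.8% and 37.5% of all genes. Their median was 0.09 against −0.02 over all genes. At day 6, 16 were higher and 19 lower, against 32.9% and 35.4% of all genes (median −0.06 against −0.03). From day 2 to day 6, 14 rose and 30 fell, against 31.9% and 30.1% (median −0.17 against 0.01). With library size alone the counts at day 2 were 15 higher and 31 lower, so the balance at that day hung on the scaling. The same scaling moved all genes likewise, to 4190 higher and 8264 lower in place of 5989 and 6270.

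Among the partners of the members, Tbl1x, a subunit of the NCoR complex, rose by 1.21 at day 2 (SE 0.141) and stood 0.77 above day 0 at day 6, from a median of 75.9 CPM to 160 and 123. Tle3, a corepressor known to work with PPARγ in fat, rose by 1.53 at day 2 (SE 0.193) and 1.33 at day 6 (SE 0.191). Of the class I deacetylases beside Hdac3, Hdac2 rose by 0.61 at day 2 (SE 0.0697).

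Of the 32 Mediator genes tested, Med1 included, 12 were higher and 8 lower at day 2, against 35.8% and 37.5% of all genes. At day 6, 4 were higher and 9 lower, against 32.9% and 35.4% of all genes. With library size alone the counts were 7 higher and 15 lower at day 2 and 2 higher and 21 lower at day 6, so the balance at day 2 turned. Med22 rose by 1.52 at day 2 (SE 0.0914), from a median of 85.4 to 235 CPM, and was back at 96.3 CPM at day 6. Med14, which joins the modules of Mediator, was lower at day 6 by 1.05 (SE 0.0910), from a median of 44.8 to 23.1 CPM.

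Among acetyltransferases and methyltransferases, Kat2b (PCAF) rose by 1.19 at day 6 (SE 0.0712) and Prmt2 fell by 1.00 at day 2 (SE 0.0829). All 4 tested genes of the PGC-1 list (Ppargc1a, Ppargc1b, Pprc1 and Ehmt1) were higher at day 2, against 35.8% of all genes, but with library size alone 2 of the 4 were. Ppargc1b led them and rose by 3.40 (SE 0.259) from a median of 1.61 to 20.0 CPM and stood 2.65 above day 0 at day 6 (SE 0.252). Ncoa7 rose by 2.45 at day 2 (SE 0.0935) and Cited2, which binds Ep300 and Crebbp, was lower by 1.57 at day 6 (SE 0.149). In the MLL list the leading genes were Kmt2d at day 2 (−0.28, SE 0.104, adjusted p = 0.0149) and Kmt2c at day 6 (0.54, SE 0.0928), and in the Sin3 list Sin3a at day 6 (0.33, SE 0.148, adjusted p = 0.0484).

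**Figure D5:**
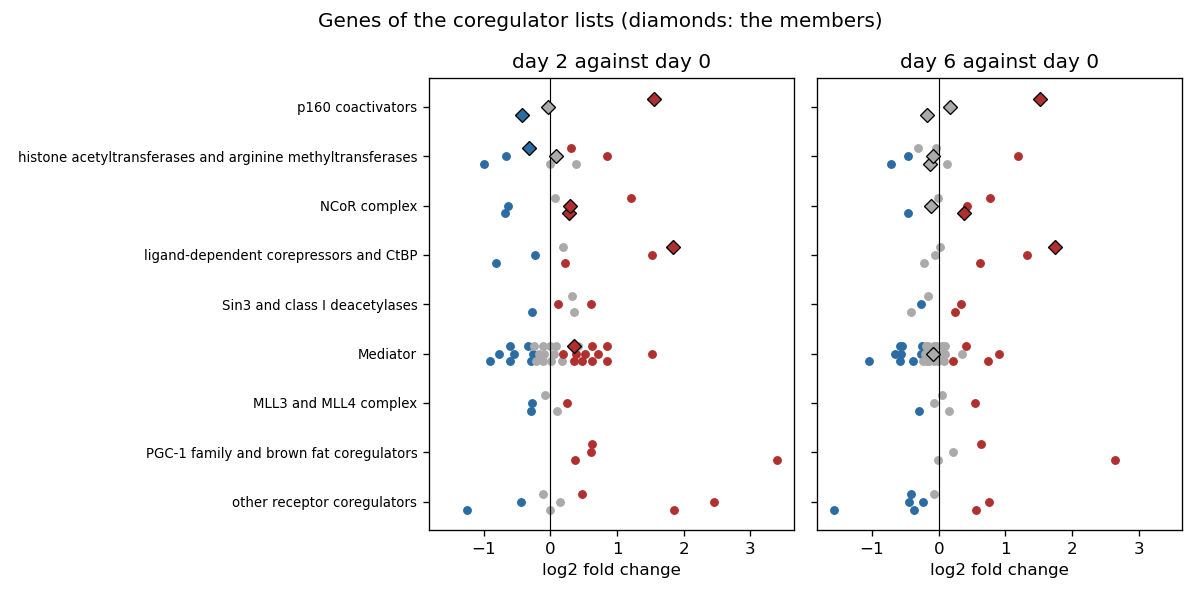
Each point is a tested gene of 9 coregulator lists, with its log2 fold change against day 0 on the horizontal axis, at day 2 on the left and day 6 on the right. Red is higher, blue lower (adjusted p under 0.05) and grey not called, and diamonds with a black edge are the members. The largest rise is that of Ppargc1b (3.40), and Nrip1 leads its list at 1.84.

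For the 2 members whose day means spanned at least 1 on the log2 scale, Nrip1 (1.81) and Ncoa1 (1.55), the genes most like them were sought over the 12 means of clone, genotype and day among 9380 genes. These means share the same libraries and a strong day effect, so a high correlation is common. Nearest to Nrip1 were 4931406C07Rik (r = 0.995) and Afap1 (r = 0.995), and nearest to Ncoa1 were Tmcc3 (r = 0.990) and Afap1 (r = 0.990). Nrip1 and Ncoa1 themselves correlated at r = 0.989. Mean log2 CPM of Afap1 was 4.26, 6.13 and 6.16 at days 0, 2 and 6. Pparg, the partner of Rxra, went from a median of 75.5 CPM to 392 and 515.

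Since Nrip1 and Ncoa1 moved together, the stretches before their start sites are shown, 250 bases each on the transcribed strand (RefSeq, GRCm38.p6). Nrip1 is at chr16:76373828-76374077 and Ncoa1 at chr12:4477183-4477432, both on the minus strand.
Nrip1: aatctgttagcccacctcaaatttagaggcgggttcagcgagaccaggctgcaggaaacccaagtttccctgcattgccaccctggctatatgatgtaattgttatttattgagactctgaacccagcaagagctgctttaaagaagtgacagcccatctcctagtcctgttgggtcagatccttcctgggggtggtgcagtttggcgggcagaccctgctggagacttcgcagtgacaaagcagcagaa
Ncoa1: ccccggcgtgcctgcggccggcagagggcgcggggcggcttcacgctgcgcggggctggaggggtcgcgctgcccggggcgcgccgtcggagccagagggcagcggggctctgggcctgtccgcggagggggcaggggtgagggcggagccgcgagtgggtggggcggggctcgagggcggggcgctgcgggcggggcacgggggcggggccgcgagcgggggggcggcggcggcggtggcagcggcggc
They hold 51.2% and 85.6% G and C against a median of 52.4% over 32851 promoter windows (5th to 95th percentile 34.8% to 73.6%). A further start of Nrip1 (chr16:76373050-76373299, not printed) has 73.6%, so its 2 starts differ in this share. The nuclear receptor element AGGTCA, the cyclic AMP response element TGACGTCA and the E-box CACGTG were searched on both strands of the 300-base windows, which run 50 bases past the start. None was found in the 8 windows of Nrip1, Ncoa1, Ncor1, Med1, Ep300 and Crebbp, whereas 16.3%, 1.79% and 7.15% of all windows held them, so capitals are absent from the sequences. No match says only that these letters are not in these windows.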

How the data were processed

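The deposited tables hold, for each of 36 libraries, whole-number read pair counts per gene and the exon length, made by the authors with STAR 2.7.0d on GRCm38.p6 (GENCODE M21) and featureCounts 1.6.2 on correctly paired fragments, unstranded, so pairs on several genes or places were left out. Lengths are other values of the deposited tables and were used for levels per kilobase. The members and gene lists were chosen with earlier results of these data known, and genes outside the members were named by rule, as the largest called change of a list or the 2 most alike. Counts were filtered with filterByExpr, scaled by TMM and fitted in edgeR 4.0.16 (quasi-likelihood test, R 4.3.3), with a term for each genotype and day plus clone, or for each clone, genotype and day in comparisons of clones. Adjusted p-values are Benjamini-Hochberg over 16723 genes, called under 0.05. The fits were also run on simulated counts, drawn independently for each gene and library. That run leaves out the deviations that the real libraries share, so it says nothing about their effect. DESeq2 1.42.0, other scalings, filters and blocks were alternatives. Same-numbered RxraWT and RxraSA libraries deviated together (r = 0.176 to 0.930 in 18 pairs, mean 0.710 over 9381 genes), so the numbers were taken to pair them. The labels call the replicates technical whereas the study's methods speak of independent replicates of the cell culture. If they are technical, the p-values measure only the spread between these libraries. The values of 1 gene of the lists are not reported here. Boxes were found by translating GENCODE transcripts and motifs in RefSeq windows, which 6 of the 9 members had.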

Additional observations from a re-analysis of the deposited data

Results flagged for a closer look

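No value was flagged. In each of the 54 groups of 6 libraries (9 genes, 2 genotypes, 3 days), the gap of the highest or lowest library to its neighbour, taken against the group's range, stayed under Dixon's 95% critical value, which about 1 group in 20 passes by chance. Each group pooled both clones, which lay apart for Hdac3 at every day, Ep300 at day 2, and Med1 and Ncor1 at day 0. Hdac3 in RxraSA at day 6, for example, was at most 103 CPM in clone 48 and at least 151 in clone 66. In those groups the range held the clone difference, so the rate of 1 in 20 does not apply. Libraries were not tested within their own clone.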

How the results depend on the processing

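Of the calls on single members, 224 of their values under other settings kept direction and side of the threshold, 15 lost the call and 1 turned (Ncor1 at day 6 against day 0, −0.064 with the mitochondrial percent as a covariate). With a library left out, 621 kept the call and 27 lost it. Over those fits the number of members lower at day 2 ran from 1 to 2, lower at day 6 from 0 to 1, higher at day 6 against day 2 from 0 to 1, higher in clone 66 from 1 to 3 at day 0 and 1 to 4 at day 6, and lower in clone 66 at day 0 from 0 to 1. The other such counts did not move. Against day 0, library size alone gave 2 members higher at day 2 in place of 5 and 5 lower at day 6 in place of 0, and 1 higher at day 6 against day 2. Among the other coregulator genes it gave 15 higher in place of 26 and 31 lower in place of 19 at day 2, and 36 lower in place of 19 at day 6. Without a clone term, 3 members were higher at day 2. Members lower at day 2 numbered 1 with no filter, without mitochondrial genes, in clone 48 alone, in clone 66 alone and with clone-specific coefficients. Members lower at day 6 against day 0 numbered 1 with a filter of 1 CPM in 6 libraries and 1 with the newer quasi-likelihood method of edgeR (Hdac3 in both). With no filter, 1 member was lower in clone 66 at day 0.

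With the replicate block, 2 members were lower at day 6 against day 0, 1 was higher at day 6 against day 2, 2 were lower in clone 66 at day 0, 5 were higher in it at day 2 and 4 at day 6, and the change between days differed between clones for 1 member from day 0 to 2 and 1 from day 2 to 6. The block changed no call beyond these and Ncor1 in clone 66 at day 0. With the covariate, 5 members were lower at day 6 against day 0, 8 lower at day 6 against day 2, and in clone 66 there were 3 lower at each day and 1 higher at day 6, with 1 member differing between clones from day 0 to 2 and 1 from day 2 to 6. Over 438 comparisons between genotypes under other settings, 0 had a member called, and the smallest adjusted p was 0.603. The causes were not tested. Clones are tied to pools, and the intervals between genotypes are from the fit without pairing. The block within each day lowered the median SE over all genes from 0.185 to 0.106 at day 0, 0.190 to 0.110 at day 2 and 0.186 to 0.106 at day 6.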
